A study of Mus musculus with 4 samples.

Results

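Interleukins are secreted signalling proteins through which immune cells and barrier tissues such as the gut epithelium address each other, and each acts through a receptor of 2 or more chains, some of them shared between several interleukins. Receptor chains of the IL-1 family pass the signal to MyD88 and NF-kappaB, those of the IL-17 family to the adaptor encoded by Traf3ip2, and most others to JAK kinases and STAT transcription factors. Antagonists, decoy receptors and binding proteins hold these signals back. In the colon the epithelium is known as a source of alarm signals such as IL-33 and as a target of IL-17, IL-22, IL-4 and IL-13.

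The genes described are those whose symbol begins with Il followed by a digit, leaving out Il18, and 57 of the 16857 genes of the deposited table met that rule: ligands, receptor chains, binding proteins, antagonists and a pair of enzyme entries. RNA was sequenced from 4 mouse adenoma colonoid lines, that is, cultured epithelial structures of the large intestine, here from adenomas. The 2 G2 lines, numbered 157 and 236, were labelled homozygous for the allele LSL-mTERT of the telomerase gene Tert, and the 2 G0 lines, numbered 75 and 179, heterozygous for it. The G2 lines were recorded as generation 2 and the G0 lines as generation 0, so generation and Tert genotype cannot be told apart. All 4 lines were labelled Apcnull and Apcmin, so both groups share the loss of Apc, and no treatment, age or sex was given. The series is described as a comparison of high and low chromosomal instability, without a label that ties either name to G2 or G0.

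Each group is 2 lines with 1 library each, replicates 1 and 2 in the order of the line numbers above, and nothing in the labels says that the lines came from separate mice, so any p below reflects line-to-line spread only, which may be technical in part. Recovered totals were 16545429 and 17156331 counts in G2 and 17152994 and 17901744 counts in G0. The epithelial markers Epcam, Krt8, Krt18 and Krt19, from a list of 8 taken up below, stood between 5995 and 80372 normalized counts in every library. The pan-leukocyte marker Ptprc was at 0 in all 4. Tert had 0 and 1 counts in the G2 libraries, against 95 and 96 counts in the G0 libraries, in the direction of the labels. The 4 Y-linked genes Ddx3y, Eif2s3y, Kdm5d and Uty had 296 to 526 normalized counts in the G2 libraries and 0 in the G0 libraries, so the presence of Y transcripts and the group cannot be told apart for any gene described here.

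Every level below is a normalized count, that is, a recovered count divided by the size factor of its library. A gene entered the test if its mean over the 4 libraries was 1 normalized count or more. limma was run on log2(normalized count + 1) for all 13981 such genes at once. An adjusted p below is two-sided, comes from that fit by the Benjamini-Hochberg method over the 13981 genes, and passes under 0.05. Low genes change by more than their log2 fold change shows on this scale, because of the added 1. An exact permutation test of a single gene in 2 against 2 libraries cannot go below p = 0.333 and was not used.

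Of the 57 genes, 38 entered the test and 19 did not. In these lines 6 of the 38 rose in G2, namely Il1a, Il1rn, Il17re, Il15, Il23a and Il2rg, and 2 fell, Il5ra and Il1rap. The 8 genes are 21.1% of the 38, beside 10.5% of all genes tested that passed, 5.93% higher and 4.56% lower in G2. The 38 had a median log2 fold change of 0.33, or 0.28 with the 2 genes at 0 in G0 (Il2rg and Il4i1) placed at their lower bound, beside 0.01 over all genes tested. A total of 4 of the 38 (Il1f5, Il2rg, Il31ra and Il4i1) entered the test through the level in 1 group alone, so these counts and medians are a description of the genes that could be tested. The G2 and G0 libraries did not overlap for 24 of the 38 genes, 16 higher and 8 lower in G2, which is 63.2% beside 57.8% of all genes tested (29.2% higher and 28.6% lower). Without any 1 of the 4 libraries the same test called 0 of these 8 genes and 0 genes in the whole table, with 2376 to 3221 genes at an unadjusted p under 0.05, while the direction of the 8 was kept in each case. Without the filter on low values Il2rg alone of the 8 passed, and without the intensity trend in limma Il1rn, Il23a, Il5ra and Il1rap did not pass.

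**Figure D1:**
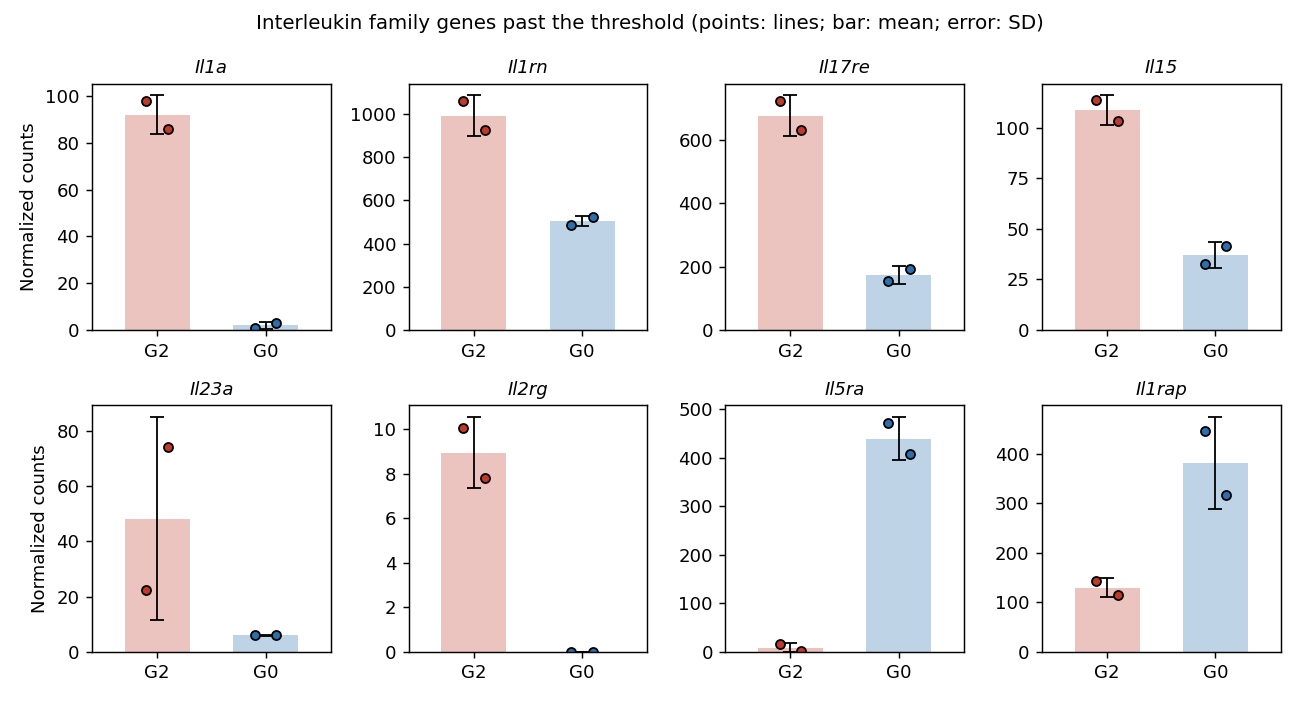
Normalized counts of the 8 genes past the threshold in the 2 G2 lines (left, red) and the 2 G0 lines (right, blue); each panel has its own axis from 0, points are lines, bars are means and error bars are SD. Il23a is the one gene of the 8 where the G2 lines stood more than 3 times apart while both lay above G0, and Il5ra and Il1rap are the 2 that were lower in G2.

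The sequence before the gene start is given for Il2rg, which rose, and Il5ra, which fell, so that genes that moved in opposite directions can be set side by side. A promoter entry was at hand for 45 of the 57 genes and for 6 of the 8 that passed, all from RefSeq on GRCm38.p6. Of these 6, Il2rg and Il5ra are the 2 whose window has no base inside the RefSeq span of the gene or in a GENCODE M21 exon. Each line is the 250 bases before the start, 5′ to 3′ in the direction of transcription, and capitals mark a match to the AP-1 motif TGANTCA, on either strand.
Il2rg, chrX:101268256-101268505, minus strand: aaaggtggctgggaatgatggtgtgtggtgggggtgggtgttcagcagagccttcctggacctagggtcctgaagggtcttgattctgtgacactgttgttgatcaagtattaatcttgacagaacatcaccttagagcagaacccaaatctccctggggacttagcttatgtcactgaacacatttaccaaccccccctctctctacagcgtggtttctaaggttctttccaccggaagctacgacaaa
Il5ra, chr6:106749038-106749287, minus strand: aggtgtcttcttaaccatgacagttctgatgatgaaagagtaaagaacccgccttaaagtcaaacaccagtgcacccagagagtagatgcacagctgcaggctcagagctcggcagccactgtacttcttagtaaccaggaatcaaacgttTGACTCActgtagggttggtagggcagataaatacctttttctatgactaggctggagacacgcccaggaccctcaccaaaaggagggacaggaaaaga
The AP-1 motif was found once before Il5ra, with its first base 99 bases before the start, and its letters were not in the window of Il2rg. Among 32536 windows of the same length over all genes, 6.73% held it. The STAT motif TTCNNNGAA (7.04% of all windows) and the NF-kappaB consensus (3.92%) were searched on both strands too, and neither was among these letters in either window. The window of Il2rg was 49.2% G and C and that of Il5ra 48.0%, beside a median of 52.4% over all windows. A match is a description of the letters and no evidence of binding.

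**Figure D2:**
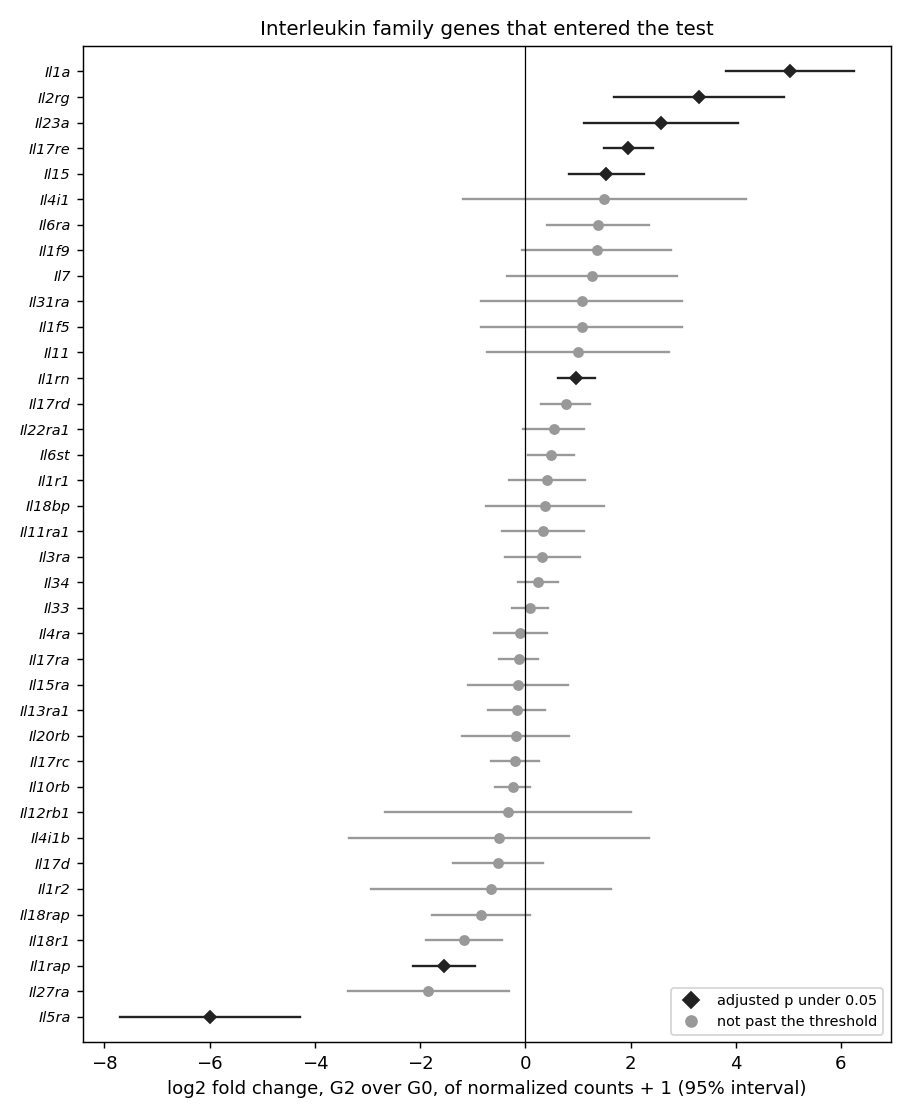
Log2 fold change, G2 over G0, with its 95% interval from the limma fit, for the 38 genes that entered the test, on the log2(normalized count + 1) scale; diamonds passed the threshold and circles did not. Il1a lies at 5.03 and Il5ra at -5.99, most others lie within 2 of 0, and the points of Il2rg and Il4i1, which had 0 counts in G0, depend on the pseudocount.

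Among the ligands of the IL-1 family, Il1a, the gene of the alarm cytokine IL-1 alpha, showed the largest rise of the 57 genes. It had 97.8 and 86.0 normalized counts in the G2 libraries, against 0.982 and 3.05 in the G0 libraries, which are 1 and 3 counts. Both G2 libraries lay far above both G0 libraries. The mean was 91.9 ± 8.3 in G2 and 2.0 ± 1.5 in G0 (SD, n = 2 each), a 45.6-fold rise (log2 fold change 5.03, SE 0.51, adjusted p = 0.00224). The size of the ratio rests on a few G0 counts: it was 30.2 with a 95% exact counting interval of 10.2 to 147 without G0 replicate 1, and 93.6 with an interval of 16.6 to 3714 without G0 replicate 2. Il1a lies on chromosome 2 from 129299609 to 129310186.

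Il1rn encodes the antagonist that occupies the IL-1 receptor without signalling. It had 1059 and 926.6 normalized counts in G2, against 488.0 and 521.1 in G0. The groups did not overlap, and the 1.97-fold rise was past the threshold (log2 fold change 0.97, SE 0.15, adjusted p = 0.0103). Il1b was not among the 57 genes, so Il1a is the only IL-1 agonist compared here. Il1rn counts exceeded Il1a counts in every library, but by different amounts: Il1rn over Il1a was 10.8 in each G2 library, against 497 and 171 in the G0 libraries. The difference of these ratios was not tested, and they are ratios of counts not scaled for length. The G0 ratios rest on 1 and 3 counts of Il1a, so their size is uncertain.

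Il33, a nuclear alarm cytokine of barrier epithelium, was the most abundant of the 57 genes, with 5429 and 4471 normalized counts in G2, against 4533 and 4721 in G0. The groups overlapped, and its log2 fold change was 0.09 with a 95% interval of -0.26 to 0.44 (adjusted p = 0.729). Its receptor chain Il1rl1, also called ST2, had 1 count in G2 replicate 1 and 0 in the other 3 libraries. Of the ligands and antagonists of the IL-36 branch, Il1f9, which encodes IL-36 gamma, had 8.07 and 9.77 normalized counts in G2 and 3.93 and 2.03 in G0 (adjusted p = 0.201), and the antagonist gene Il1f5 had at most 2 counts in any library. The IL-36 receptor chain gene Il1rl2 had 3 counts in G2 replicate 1 and 0 elsewhere. Il18bp, whose product binds and blocks IL-18, had 16.1 and 22.5 normalized counts in G2 and 18.7 and 11.2 in G0 (adjusted p = 0.650).

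Il1rap encodes the accessory chain that the receptors for IL-1, IL-33 and IL-36 share. It had 143.2 and 115.3 normalized counts in G2, against 446.8 and 315.9 in G0. Each G2 library lay below both G0 libraries, and the fall was 2.95-fold (log2 fold change -1.54, SE 0.25, adjusted p = 0.0117). Il1r1, the signalling IL-1 receptor chain that pairs with it, had 238.0 and 166.2 normalized counts in G2 and 185.6 and 119.9 in G0, with groups that overlapped (log2 fold change 0.41, 95% interval -0.30 to 1.13, adjusted p = 0.420). Il1rap over Il1r1 was 0.602 and 0.694 in G2, against 2.41 and 2.64 in G0, as ratios of counts within a library. The decoy receptor gene Il1r2 had 3 and 0 counts in G2 and 4 and 1 in G0, so its level was near the limit of detection in both groups.

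The 2 chains of the IL-18 receptor had lower values in G2, and neither passed the test. Il18r1, the ligand-binding chain, had 42.4 and 49.9 normalized counts in G2, against 120.8 and 89.4 in G0 (log2 fold change -1.16, adjusted p = 0.0583). Il18rap, the accessory chain, had 47.4 and 97.7 in G2, against 144.3 and 105.6 in G0 (log2 fold change -0.85, adjusted p = 0.222). The groups did not overlap for either gene. Both belong to a run of 6 receptor genes on chromosome 1 from 40084692 to 40551707, in the order Il1r2, Il1r1, Il1rl2, Il1rl1, Il18r1 and Il18rap. Within these 467 kb, 3 genes (Il1r1, Il18r1 and Il18rap) had more than 40 normalized counts in every library, and the other 3 had at most 4 counts in any. Il1rl1 and Il1rl2 did not enter the test, and 0 of the rest passed the threshold, beside 10.5% of all genes tested. On chromosome 2 the genes Il1f9, Il1f5 and Il1rn lie within 165 kb, and of these Il1rn alone passed.

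In the IL-17 family the receptor chain gene Il17re rose. With Il17ra it forms the receptor for IL-17C, a cytokine made and sensed by epithelium. Il17re had 721.1 and 630.5 normalized counts in G2, against 154.2 and 193.0 in G0. The groups lay well apart, a 3.89-fold rise (log2 fold change 1.96, SE 0.20, adjusted p = 0.00219), which was the smallest adjusted p of the 57 genes. Il17ra, the chain shared by most IL-17 receptors, had 425.6 and 409.6 normalized counts in G2 and 460.5 and 451.0 in G0 (log2 fold change -0.13, 95% interval -0.50 to 0.25, adjusted p = 0.649). Il17rc, which with Il17ra receives IL-17A and IL-17F, had 521.4 and 470.2 in G2 and 490.0 and 661.3 in G0 (log2 fold change -0.20, 95% interval -0.66 to 0.26, adjusted p = 0.543).

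Il17re and Il17rc are neighbours on chromosome 6, from 113458699 to 113470758 and from 113471455 to 113483163, with 696 bases between them. Il17re over Il17rc was 1.38 and 1.34 in the G2 libraries, against 0.315 and 0.292 in the G0 libraries, as ratios of counts. Il17rd, also known as Sef and described as an inhibitor of FGF signalling, had 311.6 and 381.2 normalized counts in G2, against 205.2 and 199.1 in G0, and did not pass the threshold (log2 fold change 0.77, adjusted p = 0.0553). Il17rb, the receptor chain for IL-25, had 1 and 2 counts in G2 and 0 in G0. The ligands were low: Il17d had 32.3 and 24.4 normalized counts in G2 and 43.2 and 38.6 in G0 (adjusted p = 0.391), Il17c had 0 and 3 counts in G2 and 0 in G0, and Il17f had 0 in G2 and 1 in each G0 library.

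Of 19 genes listed for the IL-17 pathway and its epithelial targets, 17 were tested, 5 rose and 0 fell, with a median log2 fold change of 0.71 beside 0.01 over all genes tested, of which 5.93% rose and 4.56% fell. This list and those below were chosen with earlier results of these data known, so their counts and medians are a description only. The chemokine genes Ccl20, Cxcl1 and Cxcl5 and the NF-kappaB cofactor gene Nfkbiz had the smallest adjusted p. Ccl20, which draws CCR6-bearing lymphocytes, averaged 214.9 ± 39.8 normalized counts in G2 and 7.0 ± 0.2 in G0 (SD, n = 2 each, adjusted p = 0.000526). Cxcl1 and Cxcl5, which draw neutrophils, were 11.3-fold and 5.65-fold higher in G2, and Nfkbiz 2.90-fold higher. Several of these genes also answer to IL-1 and other NF-kappaB signals. Lcn2, Cebpb, Cebpd and Pigr of the same list had log2 fold changes of -0.20, -0.26, -0.23 and 0.14. None of them passed (adjusted p = 0.771, 0.428, 0.606 and 0.839). Csf3 and Nos2 had at most 4 counts in any library. Traf3ip2, the adaptor that IL-17 receptors use, had 2056 and 1656 normalized counts in G2, against 1012 and 1280 in G0 (adjusted p = 0.0523).

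**Figure D3:**
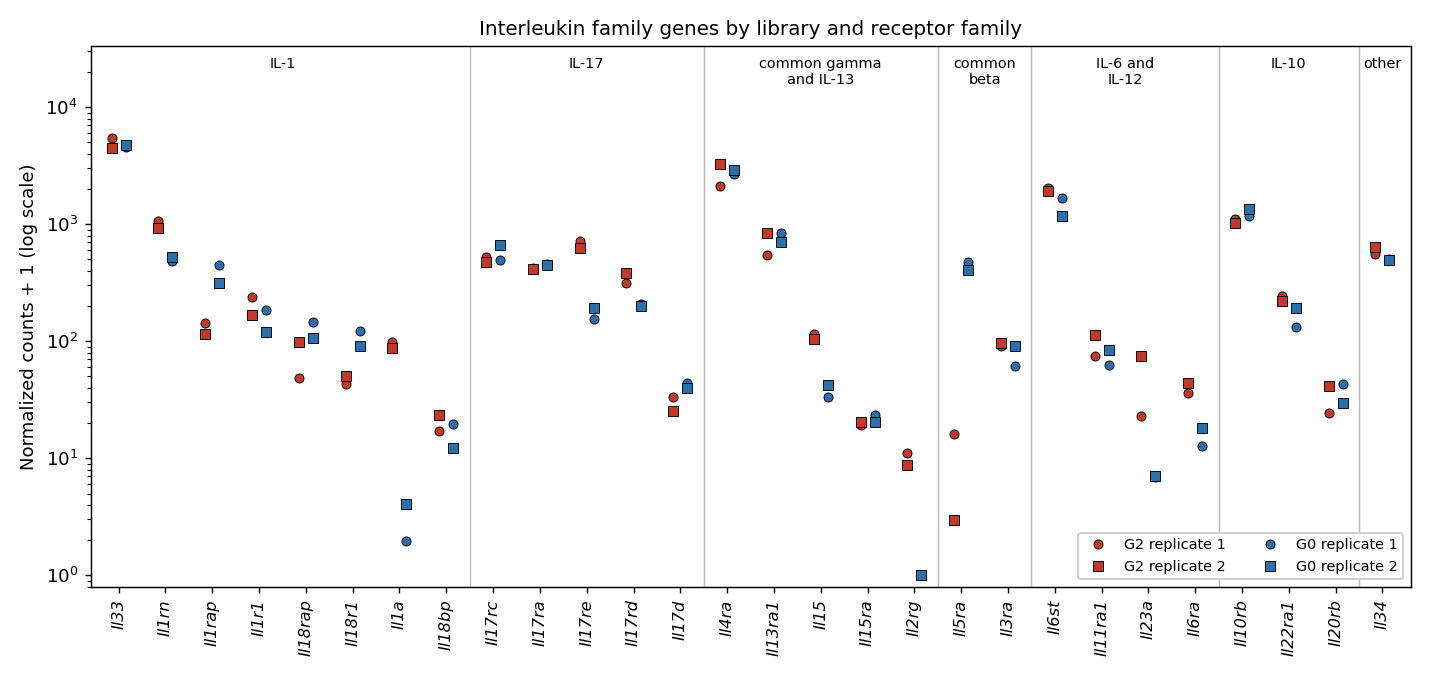
Normalized counts + 1 on a log axis for the 28 genes that passed the threshold or had a mean of at least 10, by receptor family; G2 lines are red and left, G0 lines blue and right, circles are replicate 1 and squares replicate 2. Il1a, Il23a, Il2rg and Il5ra are the genes where the groups lie farthest apart, and Il33, Il4ra, Il6st and Il10rb are the most abundant in both groups.

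Among genes tied to the common gamma chain and to IL-13, Il15 and Il2rg rose. Il15, a cytokine that supports intraepithelial lymphocytes and natural killer cells, had 114.0 and 103.6 normalized counts in G2, against 32.4 and 41.6 in G0. Both G2 libraries lay above both G0 libraries, a 2.94-fold rise (log2 fold change 1.54, SE 0.30, adjusted p = 0.0235). Il15ra, which presents IL-15 on the cell surface, had 18.2 and 19.5 in G2 and 22.6 and 19.3 in G0 (log2 fold change -0.14, 95% interval -1.10 to 0.81, adjusted p = 0.851). Il15 lies on chromosome 8 from 82331624 to 82403252.

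Il2rg, the common gamma chain itself, was detected in the G2 libraries and not in the G0 libraries, at a low level. It had 10 and 8 counts in the G2 libraries and 0 in both G0 libraries, at least 2.99-fold higher against a floor of 3 counts per library (adjusted p = 0.0276). It is best known from lymphocytes. Of 7 T and NK cell markers 2 were analysed here, and their summed level was 0 in both G2 libraries and 0 and 1.02 normalized counts in the G0 libraries, with Cd4 at 0 in all 4. Of 9 myeloid markers 6 were analysed here, with a summed level of 3280 to 4118 in G2 and 2121 to 3341 in G0, of which Cd68 and Cd14 made up nearly all. Of 4 myeloid markers tested 2 rose, Cd14 (1.94-fold, adjusted p = 0.0107) and Csf1r, with 16 and 5 counts in G2 and 0 in G0 (adjusted p = 0.0431). Cd68 did not pass, with 1151 and 1892 normalized counts in G2 and 1129 and 2110 in G0 (log2 fold change -0.06, adjusted p = 0.918). Laptm5 had 7 and 24 counts in G2 and 1 in each G0 library (adjusted p = 0.0550), and Ptprc and Itgam were at 0 in every library. The part of these markers in the level of Il2rg was not tested. In bulk RNA fewer cells that express a gene and less RNA per cell cannot be told apart.

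Of the chains that join with the common gamma chain in lymphocytes, 4 were near 0: Il2ra and Il2rb had at most 1 count in any library, Il9r had 3 and 0 counts in G2 and 0 in G0, and Il21r had 0 in all 4. Il4ra, the binding chain for IL-4 and, with Il13ra1, for IL-13, was abundant, at 2106 and 3264 normalized counts in G2 and 2700 and 2904 in G0. The G2 lines lay on either side of both G0 lines (log2 fold change -0.10, 95% interval -0.60 to 0.41, adjusted p = 0.805). Il13ra1 had 547.6 and 847.5 in G2 and 832.7 and 698.9 in G0, also overlapping (log2 fold change -0.16, 95% interval -0.71 to 0.38, adjusted p = 0.688). Both genes were higher in G2 replicate 2 than in G2 replicate 1, and Il4ra over Il13ra1 was 3.85 in both of them, against 3.24 and 4.16 in the G0 libraries. Il13ra2, a decoy for IL-13, and the ligand gene Il2 had 1 count each, in G0 replicate 2. Il7, a growth factor of lymphocytes, had 14.1 and 5.86 normalized counts in G2 and 4.91 and 2.03 in G0 (adjusted p = 0.279).

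Of 15 listed epithelial genes that answer to IL-4 and IL-13, 10 were tested, 2 rose and 1 fell. Their median log2 fold change was 0.05, beside 0.01 over all genes tested, of which 5.93% rose and 4.56% fell. Clca1, a secreted goblet cell protein, had 67.6 and 26.4 normalized counts in G2, against 1.96 and 1.02 in G0, 31.5 times as much (95% exact counting interval 10.3 to 154) (adjusted p = 0.00911). Arg1, an arginase, averaged 46.1 ± 6.7 in G2 and 5.5 ± 3.7 in G0 (adjusted p = 0.0181), and Fcgbp, a mucus protein, 41.6 ± 4.7 in G2 and 116.2 ± 29.6 in G0 (SD, n = 2 each, adjusted p = 0.0338).

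The largest fall of the 57 genes was that of Il5ra, the IL-5-binding chain, a gene best known from eosinophils and B cells. It had 15.1 and 1.95 normalized counts in G2, against 470.3 and 407.3 in G0. Every G2 library lay far below every G0 library, a 51.4-fold fall (log2 fold change -5.99, SE 0.72, adjusted p = 0.00427). The G2 libraries held 15 and 2 counts, so the ratio was 29.0 without G2 replicate 2 and 224 without G2 replicate 1, with a counting interval of 62.0 to 1859. Il5ra lies on chromosome 6 from 106710375 to 106749037, and the nearest members of the family, Il17re and Il17rc, lie on the same chromosome and were described above.

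Markers of eosinophils, basophils and mast cells were low in all libraries. Of 8 such markers 4 were analysed here, and their summed level was 18.2 and 20.5 normalized counts in G2, against 2.95 and 7.11 in G0. Kit rose, with 13 and 21 counts in G2 and 0 in both G0 libraries (adjusted p = 0.0104). Mcpt8 went the other way, with 4 and 0 counts in G2 and 2 and 7 in G0 (adjusted p = 0.504). Prg2 and Siglecf had at most 1 count in any library. The partner chain that signals for the IL-5 receptor is encoded by Csf2rb, which was not analysed here, and its close relative Csf2rb2 had 1 count in G0 replicate 1 and 0 elsewhere. The ligand gene Il5 had 1 count in G0 replicate 1. Il3ra, the IL-3-binding chain, had 90.8 and 95.8 normalized counts in G2 and 60.9 and 90.4 in G0 (log2 fold change 0.33, 95% interval -0.39 to 1.04, adjusted p = 0.529), and Csf2ra, the chain for GM-CSF, 404.4 and 397.8 in G2 and 265.1 and 285.4 in G0 (adjusted p = 0.0970).

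In the IL-6 and IL-12 families Il23a rose, the gene of the subunit that is particular to IL-23. It had 22.2 and 74.3 normalized counts in G2, against 5.89 and 6.09 in G0. Both G2 libraries lay above both G0 libraries, but they stood 3.35-fold apart from each other. The rise was 8.05-fold (log2 fold change 2.58, SE 0.62, adjusted p = 0.0446), 3.70-fold without G2 replicate 2 and 12.4-fold without G2 replicate 1. Il23a missed the threshold on the deposited log2 values (adjusted p = 0.0786), after quantile normalization (0.0796), without the filter (0.230) and without the intensity trend (0.128), over a range of 0.00174 to 0.328 across its alternatives. The receptor chain genes Il23r and Il12rb1 had at most 4 counts in any library. Il27, which encodes a subunit of IL-27, had 1 count in G2 replicate 2 and 0 elsewhere.

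Il6st, also called gp130, the signalling chain shared by IL-6, IL-11 and related cytokines, had 2050 and 1905 normalized counts in G2, against 1682 and 1186 in G0. The groups did not overlap, and the log2 fold change of 0.48 did not pass (95% interval 0.04 to 0.92, unadjusted p = 0.0355, adjusted p = 0.153). Il6ra, the IL-6-binding chain, had 35.3 and 43.0 in G2, against 11.8 and 17.3 in G0 (log2 fold change 1.39, adjusted p = 0.0798). The Il6 gene had 0 counts in all 4 libraries. Il11, a cytokine of the same group, had 7.06 and 3.91 normalized counts in G2 and 3.93 and 1.02 in G0 (adjusted p = 0.421). Il11ra1, its binding chain, had 73.6 and 112.4 in G2 and 61.9 and 83.3 in G0 (adjusted p = 0.550) and is uncertain, since near-identical copies of it exist in the mouse genome. Il27ra, a receptor chain for IL-27, had 1.01 and 1.95 normalized counts in G2, against 9.82 and 6.09 in G0, 5.37 times less (95% exact counting interval 1.54 to 28.7) (adjusted p = 0.124). Il31ra, a receptor chain for IL-31, had at most 2 counts in any library. Il11, Il11ra1, Il27 and Il27ra each overlap another coding gene in RefSeq, and the strand setting of the counting is not given in the sources used here.

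Among 19 listed partner chains and ligands that do not carry an Il name, 15 were tested, 1 rose and 1 fell. Their median log2 fold change was 0.00, beside 0.01 over all genes tested, of which 5.93% rose and 4.56% fell. Osmr, which pairs with Il6st to receive oncostatin M, had 544.6 and 859.2 normalized counts in G2, against 359.4 and 314.9 in G0 (2.08-fold, adjusted p = 0.0411). Cntfr, a binding chain for another cytokine that uses Il6st, had 5.04 and 3.91 in G2, against 22.6 and 20.3 in G0 (4.79-fold lower, adjusted p = 0.0431).

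The IL-10 family held 0 genes past the threshold. Il22ra1 and Il10rb together form the receptor for IL-22, a repair signal of gut epithelium. Il22ra1 had 241.0 and 221.9 normalized counts in G2, against 132.6 and 191.0 in G0, without overlap (log2 fold change 0.54, 95% interval -0.05 to 1.12, adjusted p = 0.220). Il10rb had 1112 and 1028 in G2, against 1181 and 1355 in G0 (log2 fold change -0.24, 95% interval -0.58 to 0.10, adjusted p = 0.319). Il20rb, a chain of the receptors for IL-20 and IL-24, had 23.2 and 40.1 in G2 and 42.2 and 28.4 in G0, overlapping (adjusted p = 0.821). Il10ra was at 0 in all 4 libraries, and the ligand gene Il24 had 0 counts in G2 and 2 in each G0 library.

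Of 16 listed targets of IL-22 and STAT3 in gut epithelium, 11 were tested, 0 rose and 3 fell. Their median log2 fold change was -0.49, beside 0.01 over all genes tested, of which 5.93% rose and 4.56% fell. Socs3 and Bcl3 of this list had log2 fold changes of -0.02 and 0.24 (adjusted p = 0.957 and 0.351). S100a9, a subunit of calprotectin, had 0 in both G2 libraries, against 27.5 and 23.4 normalized counts in G0, at least 8.54-fold lower (adjusted p = 0.00506). Fut2, a fucosyltransferase, was 1.69-fold lower and the kinase gene Pim3 1.48-fold lower (adjusted p = 0.0336 and 0.0482). The antimicrobial lectin genes Reg3b and Reg3g, textbook targets of IL-22, had at most 5 counts in any library.

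Of the genes outside these families, Il34, a second ligand of the receptor encoded by Csf1r, had 553.7 and 636.3 normalized counts in G2, against 504.7 and 497.7 in G0, without overlap (log2 fold change 0.24, 95% interval -0.13 to 0.62, adjusted p = 0.366). Il16, a chemoattractant precursor, had at most 2 counts in any library. Il4i1 and Il4i1b, entries for an amino acid oxidase induced by IL-4, share a locus on chromosome 7 with each other and with further coding genes, so reads could be split between them. Il4i1 had 7 and 0 counts in G2 and 0 in G0, and Il4i1b 0 and 3 counts in G2 and 7 and 0 in G0.

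Taking the genes by role, 12 of 20 ligands, antagonists and binding proteins entered the test, of which 4 rose and 0 fell (median log2 fold change 1.03, beside 0.01 over all genes tested, of which 5.93% rose and 4.56% fell). Of 35 receptor chains and decoys 24 entered it, of which 2 rose and 2 fell (median -0.13). The median of 1.03 lay between 2 genes with few counts, Il11 (0.997, at most 7 counts in any library) and Il1f5 (1.07, at most 2 counts). The difference between the roles was not tested. The 19 genes that did not enter the test had at most 3 counts in any library, and 4 of them (Il6, Il10ra, Il21r and Il1rapl2) had 0 in every library and so stood at the lowest value of the table. Such levels were not detectable at this depth, where 3 counts correspond to 0.168 to 0.181 CPM (counts scaled to a common library total). Floors and intervals of counts cover counting error only.

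Counts were unevenly spread over the family, with Il33 and Il4ra in the lead in every library. The 57 genes together had 16155 and 16288 normalized counts in the G2 libraries, against 15076 and 14981 in the G0 libraries. Il33, Il4ra and Il6st held 59.2% to 59.3% of these in G2 and 58.8% to 59.1% in G0. Il1rn held 6.55% and 5.69% in G2, against 3.24% and 3.48% in G0. Scaled by length, as normalized counts per kilobase of exon, Il33 averaged 1899 in G2 and 1776 in G0, ahead of Il10rb with 579 in G2 and 685 in G0 and of Il4ra with 511 in G2 and 533 in G0. On that scale Il17re averaged 222 in G2 and 57.1 in G0, beside 53.9 in G2 and 58.8 in G0 for its partner Il17ra. Il5ra averaged 2.39 per kilobase in G2 and 123 in G0, and Il1a 46.6 in G2 and 1.02 in G0.

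**Figure D4:**
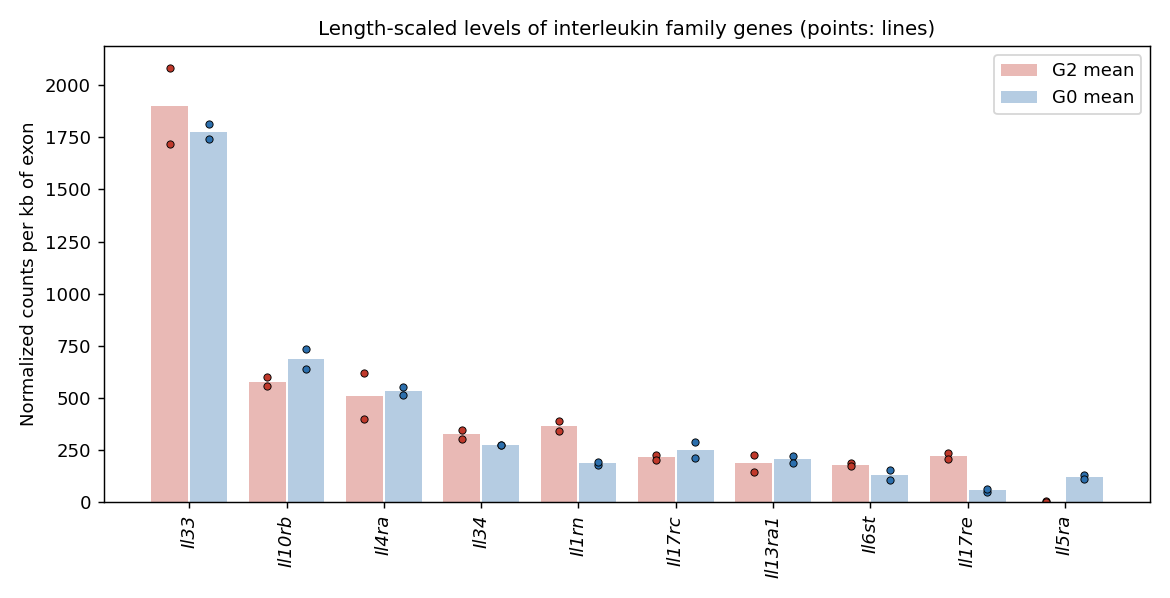
Normalized counts per kilobase of annotated exon for the 10 genes that averaged at least 100 in G2 or G0; bars are group means (G2 red and left, G0 blue and right), points are lines. Il33 stands highest in both groups, well above Il10rb and Il4ra, and Il17re and Il5ra are the genes of this set with the largest ratio between the groups.

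The lists of signalling genes that act below the receptors are given beside the 10.5% of all genes tested that passed. Of 11 JAK kinases and STAT factors and of 15 SOCS and other inhibitors of that route, all were tested and limma called 0, with 2 and 0 of them at an unadjusted p under 0.05 and median log2 fold changes of 0.03 and 0.02. Jak2, which serves several of these receptors, had 752.3 and 788.8 normalized counts in G2, against 557.7 and 493.7 in G0 (adjusted p = 0.0652). Of 15 IL-1 receptor and Toll adaptors 1 fell: Irak3, an inhibitor of that route, had 47.4 and 62.6 in G2, against 199.3 and 131.0 in G0 (3.0-fold lower, adjusted p = 0.0269). Of 9 genes for the processing of IL-1 family cytokines 8 were tested and 1 rose, the inflammatory caspase gene Casp4, at 305.6 and 262.0 in G2, against 91.3 and 80.2 in G0 (3.31-fold, adjusted p = 0.00596).

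Some epithelial marker genes differed between the groups as well. Cdx2, a transcription factor of intestinal identity, had 270.3 and 186.7 normalized counts in G2, against 2395 and 3199 in G0, and Vil1, a brush border protein, 1731 and 786.9 in G2, against 4734 and 6383 in G0 (adjusted p = 0.000430 and 0.0103). Of 8 epithelial markers Cdh1 was the 1 that rose past the threshold, and the summed level of the list was 153917 and 160152 in G2 and 116347 and 157800 in G0. Krt20 had 93 and 5 counts in G2, against 1 and 0 in G0, and did not pass (adjusted p = 0.0880). Its G2 lines stood 19.2-fold apart. Of 6 tuft cell markers 5 were analysed here, with Pou2f3 at 0 in every library, and Avil rose 2.66-fold (adjusted p = 0.0359). Dclk1 had 83.7 and 145.6 normalized counts in G2 and 73.6 and 42.7 in G0 (adjusted p = 0.179). Alox5ap had 1 and 2 counts in G2 and 3 and 8 in G0 (adjusted p = 0.299), and Trpm5 at most 3 counts in any library. B and plasma cell markers summed to at most 5 normalized counts in any library, and the fibroblast markers to at most 11, with Pdgfra and Dcn at 0. Col3a1 rose with 7 counts in each G2 library and 0 in both G0 libraries (adjusted p = 0.0404). Col1a1 went the other way, with 1 and 2 counts in G2 and 5 and 4 in G0 (adjusted p = 0.306), and Col1a2 had at most 2 counts in any library. Of 4 endothelial markers 3 were analysed here, and Vwf rose 2.87-fold (adjusted p = 0.0496) while Pecam1 and Cdh5 had at most 2 counts in any library. The part of these genes in the interleukin values was not tested.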

How the data were processed

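RNA was measured in 4 libraries, 2 G2 and 2 G0, one per colonoid line. The authors deposited one table of log2 values for 16857 genes, in which the lowest value of every library is 6.508. Per the submitters' processing notes the tools were DESeq2 1.32.0 in R 3.5.2, StringTie 2.1.1, HISAT2 2.1.0 and bcl2fastq 2.20.0, on the build mm10. For annotation and strand setting the sources used here give nothing. The values were inverted as a variance-stabilizing transformation with that floor as its constant, and one factor per library turned 100% of them into whole numbers within 0.001. These counts can be rounded estimates, so no count model was run. The plan allowed for counts or normalized values and had not foreseen this scale.

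limma 3.58.1 in R 4.3.3 was fitted on all genes with a mean of at least 1, with eBayes and an intensity trend and the group as its only term, and the steps were tested on simulated data. Genes were named if called or with a mean of at least 10; of each list outside the family, at most 4 called genes by p, and further list genes named for their role were chosen after their values were seen. The members and lists were chosen with earlier results of these data known. Positions are from RefSeq, GRCm38.p6 (57 of 57 genes by symbol), and exon lengths from GENCODE M21 (56 of 57). Alternatives changed the pseudocount, filter, scale, scaling, trend, replicate block and each library in turn.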

Additional observations from a re-analysis of the deposited data

How the results depend on the processing

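The main test called 1467 genes, and 6 higher and 2 lower interleukin family genes. The direction of the 28 named genes was kept under each of the 9 alternatives that used all libraries, except that Il2rg was not tested with a minimum mean of 5. The 6 higher and 2 lower genes kept their call with a pseudocount of 0.5 or 5 and with total count scaling. Without a filter 225 genes were called over the table and 3 in the family: Il2rg higher, and Il17f and Il24, too low for the main test, lower. The other 7 genes missed the threshold (adjusted p 0.0795 to 0.230). Without the intensity trend 623 genes were called, with 4 higher and 0 lower in the family: Il1rn (0.0669), Il23a (0.128), Il1rap (0.0669) and Il5ra (0.0576) missed the threshold. The cause was not tested. With a minimum mean of 5, Il17rd and Il18r1 passed. After quantile normalization Il18r1 passed (adjusted p = 0.0486) and Il23a did not (0.0796). Replicate numbers name separate lines. Same-numbered libraries had a correlation of deviations of 0.109. With 2 lines per group that value is the same for both numbers and cannot decide whether they pair the lines. With the replicate block 3503 genes were called and Il17rd, Il18r1, Il6ra and Il6st passed besides the 8. With any 1 library left out, 0 genes were called over the table or in the family, higher or lower; the lone library of a group is then assumed to vary like the others. Among genes that had not passed, the log2 fold change with 1 library left out spanned 0 for Il13ra1 (-0.48 to 0.15) and Il4ra (-0.41 to 0.22), positive without G2 replicate 1, for Il33 (-0.049 to 0.23), negative without it, for Il17rc (-0.42 to 0.015), positive without G0 replicate 2, and for Il20rb (-0.56 to 0.20), positive without G0 replicate 1 (0.0986) or G2 replicate 1. Depth limits genes under 3 counts per library.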
